A study of Fagopyrum tataricum with 9 samples.

Results

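Chalcone synthase (CHS) and chalcone isomerase (CHI) genes of Tartary buckwheat (Fagopyrum tataricum) were followed through seed filling. They are FtPinG0008131000.01, annotated by the study as CHS, and FtPinG0002790600.01, annotated as CHI. They are 2 of the 33940 genes in the deposited count table. Both come from the study's list of flavonoid genes that changed in these same libraries between 19 and 25 days postanthesis (DPA), so their call at that step is not independent evidence. Seeds of the cultivar XIQIAO NO.2 were sampled at 13 DPA (green fruit stage), 19 DPA (discoloration stage) and 25 DPA (initial maturity stage), with 3 libraries at each stage and no treatment. The labels state that the stages came from the same individual and that 3 plants made the replicates, and do not say whether the replicate number marks the plant. The libraries therefore measure whole seeds of 1 cultivar from 1 field. In whole seeds, fewer cells that express a gene and less RNA of that gene in each cell cannot be told apart.

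CHS is the entry enzyme of flavonoid synthesis. It joins p-coumaroyl-CoA, the end product of the general phenylpropanoid route, with malonyl-CoA to make naringenin chalcone. CHI closes the ring of the chalcone to give the flavanone naringenin, from which flavonols, anthocyanins and proanthocyanidins are made. In Tartary buckwheat seed the best known end product is rutin, a glycoside of the flavonol quercetin.

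The 9 libraries held 22002318 to 25811462 counts. Levels are given as FPKM (fragments per kilobase of gene, relative to the counted fragments of the library), which allows a comparison of genes of different length. The deposited FPKM carry no scaling between libraries beyond the total of each library. The share of counts in the 10 most abundant genes was 5.82 to 18.0% in the 13 DPA libraries, rose to 29.3 to 36.5% in those of 19 DPA, and was 33.9 to 35.9% in those of 25 DPA, so the remaining genes had less of the total at the later stages. TMM factors, which scale the libraries on the bulk of the genes, were 1.31 to 1.81, 0.733 to 0.971 and 0.652 to 0.788, and FPKM divided by them are called TMM-scaled FPKM here. As a check of the labelled tissue, the 3 storage protein genes the study names (2 glutelin and 1 11S globulin) had counts at every stage, with a summed TMM-scaled FPKM of 45.2 to 150, 39.8 to 59.3 and 102 to 142 in order of stage. The 11S globulin gene had only 0 to 3 counts in the 13 DPA libraries and 1 to 24 in those of 19 DPA. Most of the sum came from the glutelin gene FtPinG0008579200.01, with means of 72.4, 44.9 and 89.0 TMM-scaled FPKM. Other globulin genes of the study were not included. The paper describes its globulin DEGs of the 11S family as rising mainly from 13 to 19 DPA. It names FtPinG0004288700.01, the 11S globulin gene used here, as the only one rising from 19 to 25 DPA. The sum therefore does not show the course of the study's globulin genes. Of 20 starch synthase genes, 2 or 3 had no count at a stage. Their summed TMM-scaled FPKM was 328 to 1239, 287 to 2552 and 299 to 326.

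CHS was abundant at 13 and 19 DPA and low at 25 DPA. At 13 DPA replicates 1, 2 and 3 held 8413, 9289 and 3925 counts of CHS, or 147, 186 and 66.9 TMM-scaled FPKM. At 19 DPA they held 12483, 9015 and 5211 counts, or 383, 361 and 163 TMM-scaled FPKM. At 25 DPA they held 402, 1523 and 596 counts, or 16.5, 55.5 and 26.2 TMM-scaled FPKM. Replicate 3 was the lowest library at both early stages, and at 25 DPA replicate 2 stood above the other libraries. The 25 DPA libraries all lay below those of both earlier stages, while the 13 and 19 DPA libraries overlapped, since replicate 3 of 19 DPA was below replicate 2 of 13 DPA. The mean TMM-scaled FPKM was 133 ± 60.9, 303 ± 121 and 32.7 ± 20.3 in order of stage (SD, n = 3). By deposited FPKM, CHS ranked between 412 and 1279 among the 33940 genes in the 13 DPA libraries, between 183 and 592 in those of 19 DPA, and between 2010 and 6461 in those of 25 DPA.

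CHI had a lower level than CHS in every library and the same order of stages on this scale. At 13 DPA replicates 1, 2 and 3 held 2850, 2646 and 1733 counts of CHI, or 48.2, 51.3 and 28.6 TMM-scaled FPKM. At 19 DPA they held 2014, 2008 and 1211 counts, or 59.8, 77.7 and 36.6 TMM-scaled FPKM. At 25 DPA they held 200, 368 and 244 counts, or 7.93, 13.0 and 10.4 TMM-scaled FPKM. Replicate 3 was again the lowest library at 13 and 19 DPA and replicate 2 the highest at 25 DPA. The 13 and 19 DPA libraries overlapped, and no 25 DPA library reached the level of an earlier one. The mean was 42.7 ± 12.3, 58.0 ± 20.6 and 10.4 ± 2.51 TMM-scaled FPKM at the 3 stages (SD, n = 3). On the deposited FPKM the first 2 stages stood in the other order, with means of 65.5 ± 13.0, 50.2 ± 12.7 and 7.61 ± 2.30. For CHS the deposited FPKM kept 19 DPA highest, at 201 ± 69.1, 265 ± 107 and 24.3 ± 16.98. CHI ranked 1995 to 3372, 1429 to 2881 and 7756 to 10451 among all genes by deposited FPKM.

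**Figure D1:**
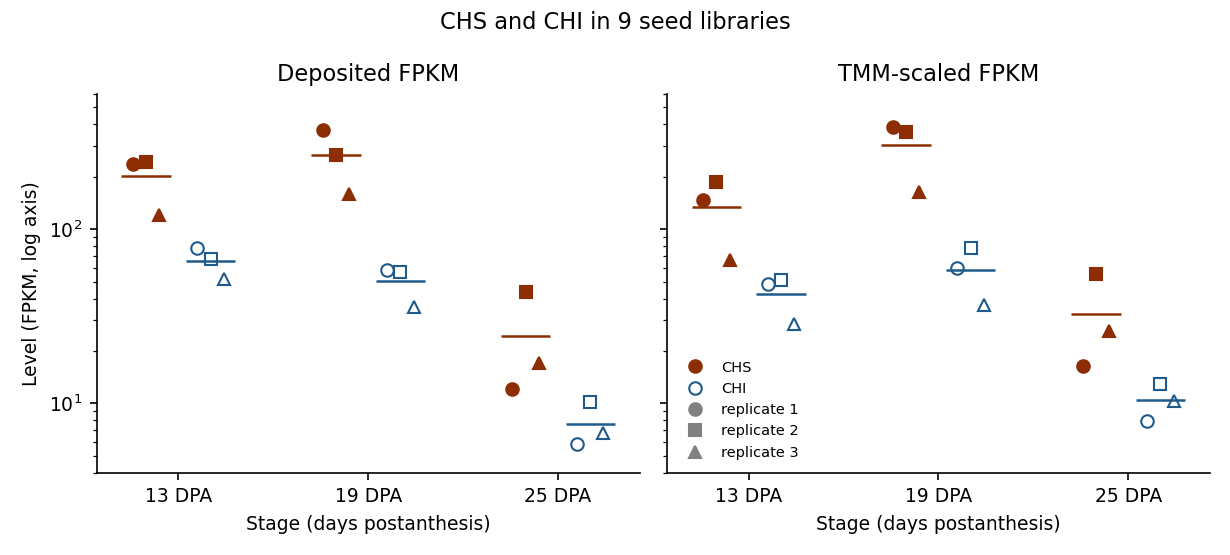
Level of CHS (filled) and CHI (open) in each library at 13, 19 and 25 DPA, as deposited FPKM on the left and TMM-scaled FPKM on the right, on a log axis. Symbols mark the replicate number and bars the mean of 3. The 25 DPA libraries lie below all earlier ones for both genes on both scales, while 13 and 19 DPA overlap.

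From 13 to 19 DPA, the step from green fruit to discoloration, neither gene was called. A gene was called differentially expressed (DEG) when the FDR of edgeR's quasi-likelihood test, by Benjamini-Hochberg over all 23609 genes in the test, did not exceed 0.05 and the log2 fold change was 1 or more in size. By that rule 4.11% of the genes tested were higher at 19 DPA and 4.46% lower. CHS had a log2 fold change of 1.18 (SE 0.54, edgeR FDR 0.206) with a 95% interval of -0.05 to 2.41. CHI had a log2 fold change of 0.44 (SE 0.33, edgeR FDR 0.435) with an interval of -0.29 to 1.18. The median over all genes tested was -0.03, and 8.98% of the genes had a larger value than CHS and 22.1% a larger value than CHI. Between libraries of the same replicate number CHS was higher at 19 DPA in all 3 pairs on both scales, while CHI was higher in all 3 as TMM-scaled FPKM and lower in all 3 as deposited FPKM. With the replicate number as a block the log2 fold change was 1.22 for CHS (SE 0.40, edgeR FDR 0.0818) and 0.42 for CHI (SE 0.24, edgeR FDR 0.285), and neither was called. With total counts in place of TMM the value of CHI turned to -0.38 and that of CHS was 0.40. The median of all genes was then -0.85, and relative to it CHI was 0.46 and CHS 1.25 higher.

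From 19 to 25 DPA, the step from discoloration to initial maturity, both genes fell. Among the genes tested 19.5% were called lower at 25 DPA and 9.27% higher, so a fall at this step was common, and the study had chosen both genes for this change. The mean TMM-scaled FPKM of CHS was 9.24-fold lower at 25 DPA, with a fitted log2 fold change of -3.21 (SE 0.59, edgeR FDR 0.00341) and a 95% interval of -4.53 to -1.89. That of CHI was 5.57-fold lower, with a log2 fold change of -2.48 (SE 0.34, edgeR FDR 0.00126) and an interval of -3.25 to -1.70. The libraries of the stages did not overlap for either gene. The median over all genes tested was -0.02, and 6.76% of the genes had a lower value than CHS and 10.3% a lower value than CHI. The CHS fold depended on 25 DPA replicate 2: without it the log2 fold change was -3.82 (edgeR FDR 0.00362).

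**Figure D2:**
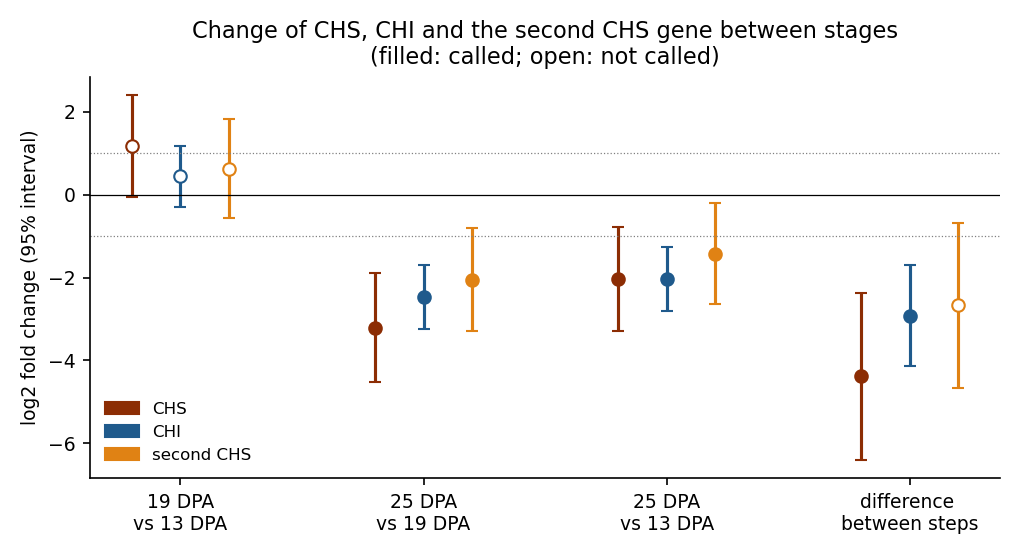
Fitted log2 fold change of CHS, CHI and the second CHS gene (FtPinG0008806400.01) for each pair of stages and for the difference between the steps, with 95% intervals. Filled symbols were called and open ones were not, and dotted lines mark a log2 fold change of 1 in either direction. For CHS the values run from 1.18 at the first step to -3.21 at the second.

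Over the whole span from 13 to 25 DPA the fitted log2 fold changes of both genes came to -2.03. For CHS the SE was 0.56 and the edgeR FDR 0.0130, and for CHI they were 0.34 and 0.00106. The mean TMM-scaled FPKM was 4.08-fold lower for CHS and 4.10-fold lower for CHI. In this comparison 25.6% of the genes tested were lower at 25 DPA and 16.6% higher. The fold depended on the scale: on the deposited FPKM the means were 8.25-fold and 8.60-fold lower. Leaving out 25 DPA replicate 3 lost the call of CHS (log2 fold change -1.89, edgeR FDR 0.0526), and leaving out 25 DPA replicate 2 gave it a value of -2.64.

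The steps were compared directly by the contrast of the second change minus the first, in the same fit. It was -4.39 for CHS (SE 0.90, edgeR FDR 0.0265, 95% interval -6.40 to -2.37) and -2.92 for CHI (SE 0.54, edgeR FDR 0.0216, interval -4.14 to -1.70). It contains the change from 19 to 25 DPA for which the study had chosen both genes, so it describes them and is no independent support. Of the genes tested 5.45% were called in that direction, and 2.98% had a lower value than CHS and 7.52% a lower value than CHI. With the replicate number as a block, 1920 genes were called in that direction in place of 1286, the values were -4.44 and -2.84, and the edgeR FDRs of CHS and CHI were 0.0120 and 0.0111. The 19 DPA libraries enter both steps, so the same 3 libraries bear on each. The contrast alone does not show a peak at 19 DPA, since neither gene was called at the first step. The call of CHS was lost when any 1 of 5 libraries was left out, with edgeR FDRs of 0.0562 without 13 DPA replicate 1, 0.109 and 0.0604 without 19 DPA replicates 1 and 2, and 0.0536 and 0.0655 without 25 DPA replicates 1 and 3. That of CHI was lost without 19 DPA replicate 1 (0.0878), 19 DPA replicate 2 (0.0518) or 25 DPA replicate 3 (0.0531). The value of CHS was largest in size, at -5.05, when 19 DPA replicate 3 was left out, and -5.01 when 25 DPA replicate 2 was.

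The ratio of CHS to CHI within a library does not depend on the scaling between libraries. At 13 DPA it was 3.05, 3.63 and 2.34 in replicates 1, 2 and 3, computed from FPKM. At 19 DPA it was 6.41, 4.64 and 4.45. At 25 DPA it was 2.08, 4.28 and 2.53. The 19 DPA libraries were higher than all others, and 13 and 25 DPA overlapped. The mean log2 ratio was 0.78 higher at 19 than at 13 DPA, and fell by 0.85 from 19 to 25 DPA. Each difference had an exact two-sided permutation p of 0.10, the smallest that 3 libraries against 3 can give, and 0.15 after adjustment over the 3 pairs of stages. Between 25 and 13 DPA the log2 ratio differed by -0.07 (exact permutation p = 0.90). The means of the ratio were 3.01 ± 0.646, 5.17 ± 1.08 and 2.96 ± 1.16 (SD, n = 3).

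**Figure D3:**
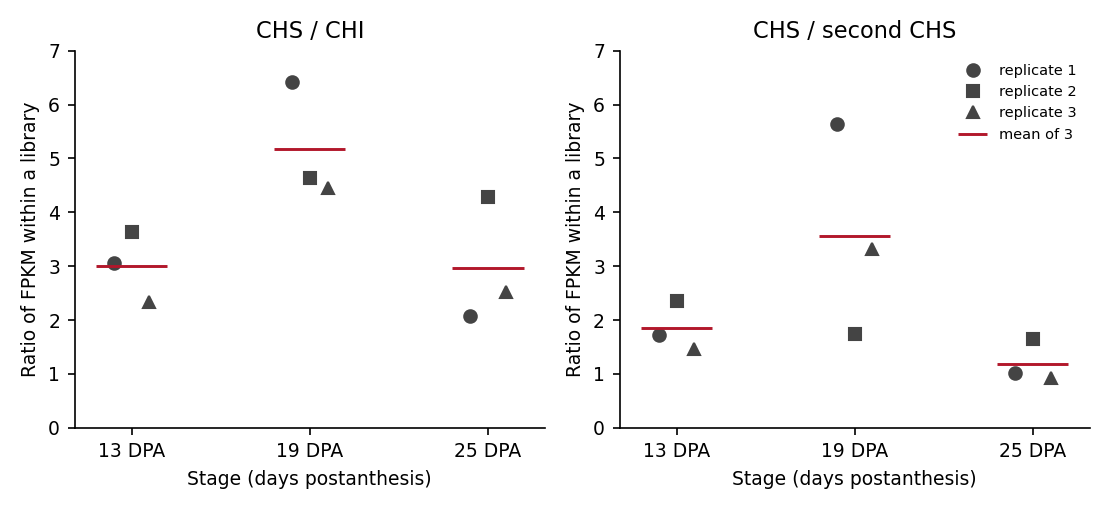
Ratio of FPKM within each library for CHS over CHI on the left and CHS over the second CHS gene on the right. Symbols mark the replicate number and red bars the mean of 3. The ratio of CHS to CHI is 4.45 or more in the 19 DPA libraries and 4.28 or less in the others, while CHS over the second CHS gene spreads from 1.74 to 5.64 at 19 DPA.

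CHS and CHI also varied together among the libraries of a stage. As log2 CPM (counts relative to the TMM-scaled library total) minus the stage mean, CHS was at 0.27, 0.61 and -0.87 at 13 DPA in replicates 1, 2 and 3, and CHI at 0.22, 0.31 and -0.53. At 19 DPA CHS was at 0.44, 0.35 and -0.79 and CHI at 0.11, 0.49 and -0.60. At 25 DPA CHS was at -0.80, 0.94 and -0.14 and CHI at -0.36, 0.34 and 0.02. Both genes were below their stage mean in replicate 3 at 13 and 19 DPA and in replicate 1 at 25 DPA. Pearson's r of these deviations was 0.925 over 9 libraries, and 0.966 for the levels themselves, given as a description since the libraries share stages. Replicate 3 also had the lowest share of counts in the 10 most abundant genes at 13 and 19 DPA (5.82% and 29.3%), and whether this bears on its low CHS and CHI was not tested.

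**Figure D4:**
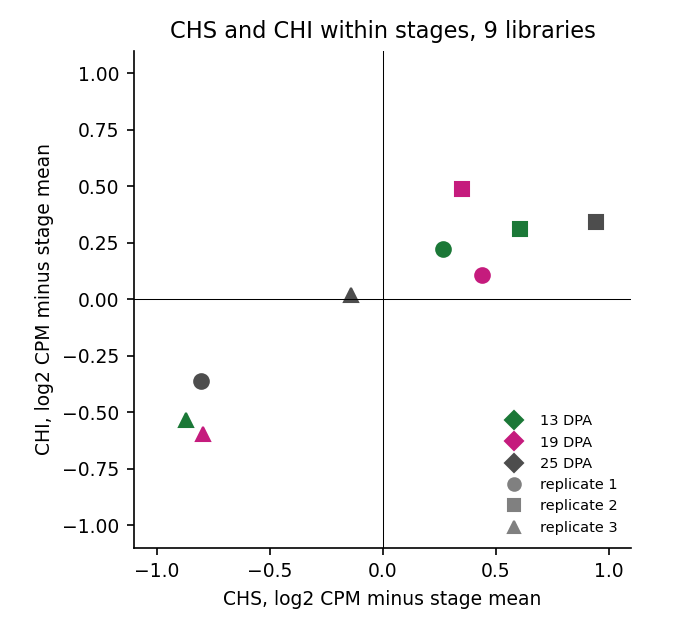
Deviation of each library from its stage mean for CHS (horizontal) and CHI (vertical), in log2 CPM. Colours mark the stage and symbols the replicate number. Replicate 3 of 13 and 19 DPA and replicate 1 of 25 DPA lie low for both genes, with CHS between -0.87 and -0.79.

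The study annotated 4 genes as CHS and 2 as CHI, and the CHS and CHI genes described here had the highest mean of each at every stage. In 25 DPA replicate 3 the second CHS gene was above CHS. The second CHS gene, FtPinG0008806400.01, had TMM-scaled FPKM of 85.2, 79.3 and 45.5 in the 13 DPA libraries. Those of 19 DPA had 68.0, 207 and 49.0, and those of 25 DPA 16.3, 33.7 and 28.4. Its highest library was 19 DPA replicate 2, not replicate 1 as for CHS, and all 25 DPA libraries were below all earlier ones. It fell from 19 to 25 DPA (log2 fold change -2.05, SE 0.55, edgeR FDR 0.0176) and from 13 to 25 DPA (-1.42, SE 0.54, edgeR FDR 0.0495). Its change from 13 to 19 DPA was 0.63 (SE 0.53, edgeR FDR 0.505), and the difference between the steps was -2.67 (SE 0.88, edgeR FDR 0.0938). The ratio of CHS to this gene was 1.73, 2.35 and 1.47 in the 13 DPA libraries, then 5.64, 1.74 and 3.33, and last 1.01, 1.65 and 0.920. The 19 DPA libraries lay above those of 25 DPA in this ratio and overlapped with those of 13 DPA. The log2 ratio fell by 1.47 from 19 to 25 DPA, with an exact permutation p of 0.10, or 0.191 over the 21 tests of this kind.

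The remaining copies added little. The third CHS gene, FtPinG0002106500.01, had 2 to 24 counts in a library, and its log2 fold changes of 1.02 and 0.74 at the steps and 1.77 over both were not called (edgeR FDR 0.452, 0.459 and 0.0788). The fourth, FtPinG0008741700.01, had 0 counts in every library, which allows up to 3 counts in each by counting error alone. The second CHI gene, FtPinG0008145300.01, had 0 to 4 counts and was not tested. How reads that match several copies were counted is not given in the sources used here, so counts may be split among near copies. Summed over the 4 CHS genes, the log2 fold changes were 1.03, -2.83 and -1.80, and summed over the 2 CHI genes they were 0.44, -2.47 and -2.03, with the same calls as for the single genes. With FPKM summed in this way the log2 ratio of CHS to CHI was 0.57 higher at 19 than at 13 DPA (exact permutation p = 0.10) and fell by 0.35 from 19 to 25 DPA (exact permutation p = 0.20), in place of 0.78 and 0.85 for the single genes.

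The enzymes just before CHS showed a mixed picture. Phenylalanine ammonia-lyase (PAL) opens the phenylpropanoid route, cinnamate 4-hydroxylase (C4H) adds the first hydroxyl group to cinnamate, and 4-coumarate-CoA ligase (4CL) makes the CoA ester that CHS uses. The C4H gene with a primer in the study, FtPinG0001575100.01, had TMM-scaled FPKM of 118, 143 and 53.3 in the 13 DPA libraries. Those of 19 DPA had 148, 222 and 97.5, and those of 25 DPA 10.2, 46.6 and 19.98. It was low in replicate 3 at both early stages and high in replicate 2 at 25 DPA, as CHS and CHI were. It fell from 19 to 25 DPA (log2 fold change -2.61, SE 0.61, edgeR FDR 0.00984) and was not called from 13 to 19 DPA (0.58, edgeR FDR 0.577). The ratio of CHS to C4H lay between 1.25 and 1.31 in the 13 DPA libraries, between 1.62 and 2.60 in those of 19 DPA, and between 1.19 and 1.61 in those of 25 DPA, so the 19 DPA libraries were above the others. Both differences with 19 DPA had an exact permutation p of 0.10, or 0.191 adjusted over the 21 tests.

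The 4CL gene FtPinG0005072700.01 had TMM-scaled FPKM of 35.3, 27.5 and 19.3, then 20.8, 46.5 and 13.6, and 1.75, 6.47 and 3.88 in the replicates of the successive stages. It fell at the second step too (log2 fold change -2.74, SE 0.57, edgeR FDR 0.00592), with -0.02 at the first. The PAL gene FtPinG0008236900.01 had TMM-scaled FPKM of 36.9, 63.5 and 22.5 in the 13 DPA libraries. Those of 19 DPA had 93.9, 127 and 98.7, and those of 25 DPA 44.6, 65.6 and 99.0, so the later stages overlapped. None of its comparisons was called, with log2 fold changes of 1.38 (edgeR FDR 0.0664), -0.61 (0.257) and 0.77 (0.139). The study, by contrast, listed this PAL gene as changed from 13 to 19 DPA in the same libraries. The ratio of CHS to this PAL gene ranged over 2.93 to 3.99, 1.65 to 4.09 and 0.264 to 0.846 in order of stage. That of CHI ranged over 0.807 to 1.31, 0.371 to 0.637 and 0.105 to 0.198. Against this PAL gene both genes were therefore lowest at 25 DPA in every library, with log2 ratios that fell by 2.62 and 1.77 from 19 to 25 DPA (exact permutation p = 0.10 each, 0.191 adjusted over the 21 tests). The other PAL genes had a lower mean TMM-scaled FPKM at each later stage. FtPinG0003900700.01 had TMM-scaled FPKM of 61.8, 64.9 and 24.5, then 31.4, 44.0 and 25.6, and last 8.12, 22.3 and 9.97 in the replicates of the successive stages, with all 25 DPA libraries below the earlier ones. Its log2 fold change was -0.58 at the first step (edgeR FDR 0.477) and -1.32 at the second (edgeR FDR 0.0511), and from 13 to 25 DPA it fell (-1.90, SE 0.48, edgeR FDR 0.00863). FtPinG0008237100.01 also fell from 13 to 25 DPA (-1.43, SE 0.24, edgeR FDR 0.00109), with -0.56 and -0.87 at the steps (edgeR FDR 0.165 and 0.0189), under the fold limit. None of the 3 PAL genes was thus called at a single step, and 2 of 3 were lower over both. The ratios of CHS and CHI to these 2 genes were not computed.

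Flavonol synthase (FLS) turns dihydroflavonols into flavonols such as quercetin. The most abundant FLS gene, FtPinG0006907100.01, had TMM-scaled FPKM of 205, 314 and 146 in the 13 DPA libraries. Those of 19 DPA had 390, 590 and 368, and those of 25 DPA 80.0, 124 and 118. It stood above CHS in all 9 libraries. It fell from 19 to 25 DPA (log2 fold change -2.07, SE 0.36, edgeR FDR 0.00283) and, at 1.02, was not called from 13 to 19 DPA (edgeR FDR 0.1005). The ratio of CHI to this FLS gene ranged over 0.164 to 0.235, 0.0996 to 0.153 and 0.0876 to 0.105 in order of stage, with no overlap between 13 DPA and either later stage. The log2 ratio fell by 0.63 and 1.01 from 13 DPA to those stages (exact permutation p = 0.10 each, 0.191 adjusted over the 21 tests). The 19 and 25 DPA libraries overlapped (exact permutation p = 0.20). The ratio of CHS to this FLS gene ranged over 0.458 to 0.717, 0.444 to 0.984 and 0.206 to 0.449. Only 13 and 25 DPA did not overlap (exact permutation p = 0.10). The exact permutation p was 0.80 for 19 against 13 DPA and 0.20 for 25 against 19 DPA. The neighbouring identifier FtPinG0006907000.01, also FLS, fell by 2.66 on the log2 scale at the second step (edgeR FDR 0.00410). It had 14.9, 37.7 and 15.1 TMM-scaled FPKM at 19 DPA and 1.90, 5.78 and 2.95 at 25 DPA. The study listed both of these FLS genes as changed from 19 to 25 DPA in the same libraries. Their calls at that step are therefore not independent evidence.

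Of the 47 genes that the study annotated as related to flavonoids 41 had a count and 31 were tested. From 13 to 19 DPA 7 of the 31 were higher and 1 lower, beside 4.11% and 4.46% of all genes tested, with a median log2 fold change of 0.63 against -0.03 over all genes tested. Leaving out 1 library brought the 8 calls down to as few as 1 (without 13 DPA replicate 1) and up to 10 (without 13 DPA replicate 2). From 19 to 25 DPA 12 were lower and 8 higher, beside 19.5% and 9.27% of all genes, with a median of -1.0 against -0.02. From 13 to 25 DPA 12 were lower and 10 higher, beside 25.6% and 16.6%. With total counts, where the median of all genes was -0.85, 3 were higher and 5 lower at the first step. The list without CHS and CHI had 10 lower and 8 higher genes from 19 to 25 DPA and a median of -1.0. It still held the FLS genes that the study had listed for this change.

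At the second step the calls are given by enzyme as counts, with 1 to 12 tested genes each and no test of a difference between enzymes. Over all genes tested 19.5% were lower and 9.27% higher at this step. Of the 3 tested CHS genes 2 were lower, and the single tested CHI gene was. Both tested flavonoid 3',5'-hydroxylase (F3'5'H) genes were lower, such as FtPinG0003628500.01 at -3.70 (SE 0.46, edgeR FDR 0.000925). Of 6 FLS genes 3 were lower and 1 higher. Of 4 flavonoid 3'-hydroxylase (F3'H) genes, whose enzyme adds the hydroxyl group that turns the kaempferol pattern into that of quercetin, 1 was lower and 2 higher. The lower one, FtPinG0002353900.01, passed just at the fold limit, from 39.3 ± 17.2 to 19.6 ± 5.30 TMM-scaled FPKM (SD, n = 3, edgeR FDR 0.0308). Of 12 tested UDP-glucose flavonoid glucosyltransferase (UFGT) genes, whose enzymes attach sugar, 3 were lower and 5 higher. FtPinG0003585500.01 is a UFGT gene that rose, from 3.98 ± 0.374 to 25.7 ± 4.89 TMM-scaled FPKM (SD, n = 3, log2 fold change 2.69, SE 0.32, edgeR FDR 0.000810), while CHS and CHI fell. The UFGT gene with a primer in the study, FtPinG0006606900.01, was uncalled at both steps, at 0.26 and -0.15 (edgeR FDR 0.712 and 0.774). FtPinG0003585500.01 was chosen as an example after its values were seen.

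**Figure D5:**
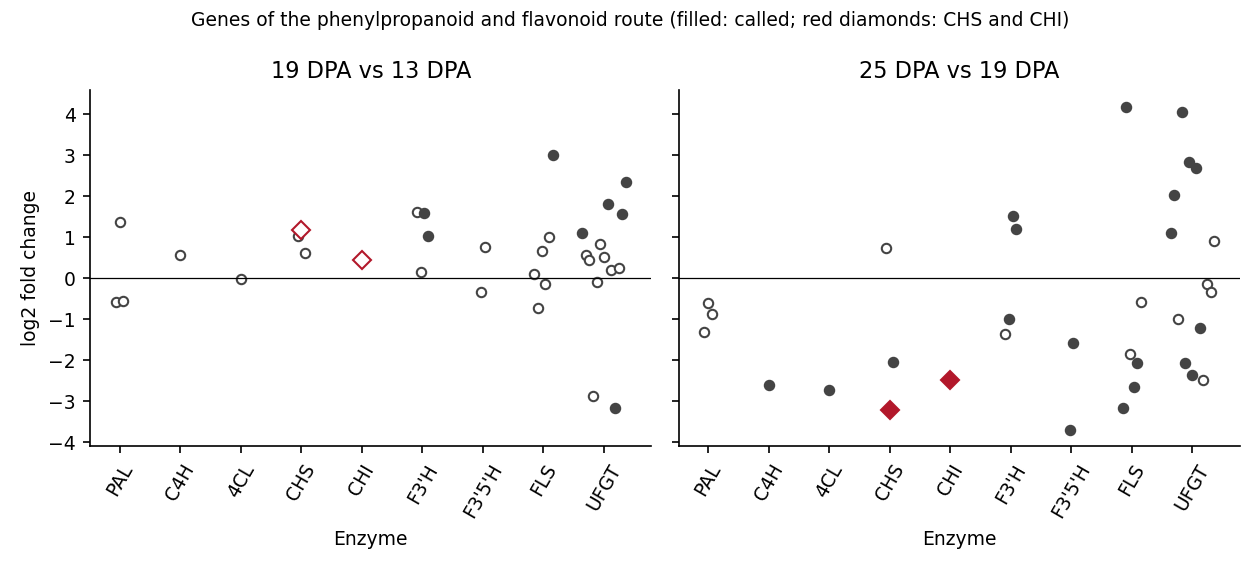
Fitted log2 fold change of tested genes from PAL to UFGT, at the first step (left) and the second (right). The genes are those of the study's flavonoid list and primer list, with a single gene each for C4H and 4CL. Filled symbols were called and red diamonds are CHS and CHI. At the second step C4H, 4CL, CHS and CHI lie between -3.21 and -2.48 apart from 2 further CHS genes, while F3'H, FLS and UFGT genes lie on both sides of 0.

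The pattern over the 9 libraries was then compared with all other tested genes by Pearson's r of log2 CPM, as a description, since the libraries share stages and many genes fall at 25 DPA. CHI ranked 51 of 23608 genes in likeness to CHS, and CHS ranked 92 in likeness to CHI (r = 0.966). The study had chosen both genes for their change from discoloration to initial maturity in these same libraries. Their likeness over all libraries is thus partly set by that choice and is not independent evidence. Among the listed genes C4H FtPinG0001575100.01 was nearest to CHS (r = 0.977, rank 18), followed by CHI and the FLS gene FtPinG0006907100.01 (r = 0.951, rank 145). The listed gene nearest to CHI was the FLS gene FtPinG0001318800.01 (r = 0.972, rank 63, named once its rank was known), then C4H (rank 85) and CHS, with 4CL at rank 170. The second CHS gene ranked 776 for CHS and 654 for CHI. The PAL gene FtPinG0008236900.01 ranked 8397 for CHS and 10570 for CHI. An r of 0.9 or more with CHS was found for 620 genes, or 2.63% of all, and for 5 of the 30 other tested genes of the flavonoid list. For CHI these numbers were 1140 genes, 4.83% and 8 of 30. The flavonoid genes counted here include CHS or CHI and FtPinG0006907100.01, which the study had also listed for the change from discoloration to initial maturity. These counts are therefore not independent of that choice either.

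The 5 genes most like CHS were FtPinG0005880600.01 (r = 0.995), FtPinG0000440800.01 (0.994), FtPinG0003315400.01 (0.990), FtPinG0002020200.01 (0.989) and FtPinG0005235000.01 (0.987). FtPinG0000440800.01 was the most abundant of these, with 15.4 ± 9.73, 43.0 ± 17.5 and 3.07 ± 2.24 TMM-scaled FPKM in order of stage (SD, n = 3). FtPinG0005880600.01 and FtPinG0003315400.01 were low, with means of 3.64 and 1.53 at 19 DPA and 0.176 and 0.121 at 25 DPA. Each had a 25 DPA library at 0, which limits what their r can show. The 5 most like CHI were FtPinG0005755500.01, FtPinG0004072300.01, FtPinG0002078300.01, FtPinG0001823900.01 and FtPinG0008613300.01, with r from 0.990 down to 0.985. Of these FtPinG0002078300.01 was the most abundant, at 161 ± 55.7, 202 ± 46.0 and 44.7 ± 11.7 TMM-scaled FPKM (SD, n = 3). FtPinG0008613300.01 was low, with a mean of 0.102 at 25 DPA and a library at 0 there. None of the 10 genes is in the flavonoid, starch or storage protein lists, and the files do not annotate them. When the likeness was taken over the 6 libraries of 13 and 19 DPA alone, the rank of CHI for CHS dropped to 566 and that of CHS for CHI to 342 (r = 0.914).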

How the data were processed

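For the 9 seed libraries, mRNA was selected with oligo(dT) and read in pairs on an Illumina HiSeq. The authors aligned trimmed reads to the Pinku1 genome and deposited counts over annotated genes and Cufflinks-assembled new genes. The submitters' processing notes list TopHat2 2.0.12 and Bowtie2 2.0.6. How reads were counted, with which tool and strand setting and with what treatment of multiple matches, is not given in the sources used here. From these counts the authors computed the deposited FPKM, with a fixed length per gene and no scaling beyond the total of each library.

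Counts were fitted with edgeR 4.0.16 in R 4.3.3 (TMM, filterByExpr, robust quasi-likelihood, stage as the only term). The fit held all libraries and 23609 genes, and 10331 were dropped by the filter. Standard errors were taken as the absolute log2 fold change over the square root of F. FPKM ratios were compared by exact permutation in scipy 1.17.1. Other tools were DESeq2 1.42.0, limma 3.58.1, Python 3.11.15, numpy 2.4.6, pandas 2.3.3 and matplotlib 3.10.9. Scripts were tested on simulated data.

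The genes named are CHS and CHI, their copies and the other pathway genes in the study's tables and primer list, and for each member the 5 tested genes with the highest r over log2 CPM (prior count 2). The members, lists and tests were chosen with earlier results of these data known. The study's methods leave the fold limit for DEGs unclear, and 1 on the log2 scale was used. The edgeR p-values and intervals rest on the spread among libraries within stages, pooled over the 9 libraries with information shared across genes. They cover that spread only, and a count of 0 covers counting error only. The permutation p-values rest on the possible arrangements of 3 libraries against 3. The common biological coefficient of variation was 0.362, with 0.469 for CHS and 0.303 for CHI.

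Pairing was checked by correlating deviations from stage means across genes, which are not independent. Between 13 and 19 DPA, same-number libraries had r of 0.353 to 0.590 and other pairs -0.478 to -0.111. The numbers may thus pair these stages, and a fit with a replicate block was given as an alternative. The main fit and the permutation tests of ratios did not use the pairing. With 25 DPA the same-number r was 0.0258 to 0.197 for 19 DPA and -0.0279 to 0.133 for 13 DPA. The alternatives were DESeq2, other scalings and filters, the libraries of a pair alone, a replicate block, limma on log2 FPKM with pseudocounts of 1 and 0.1, summed copies and each library left out. RT-qPCR and metabolite measurements were not analysed here.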

Additional observations from a re-analysis of the deposited data

How the results depend on the processing

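From 19 to 25 DPA both genes kept their call and direction in all 9 fits without 1 library and all 12 other alternatives, with log2 fold changes of -3.82 to -2.83 for CHS and -2.76 to -2.21 for CHI. From 13 to 25 DPA the range without 1 library was -2.64 to -1.70 for CHS, whose call was lost without 25 DPA replicate 3. CHI kept its call there in all of them. From 13 to 19 DPA neither gene was called in any alternative, and CHI changed direction with total counts (-0.38), with limma on log2(FPKM + 1) with and without the filter (-0.39 each) and on log2(FPKM + 0.1) (-0.40). The difference between the steps was -5.05 to -3.97 for CHS and -3.47 to -2.39 for CHI without 1 library, called in 4 and 6 of 9 such fits, and called in all 7 other alternatives.

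The replicate block changed no call of CHS or CHI: at the first step CHS was 1.22 (edgeR FDR 0.0818) and CHI 0.42, and at the second -3.22 and -2.42. In blocked pairs the log2 ratio of CHS to CHI changed by 0.78, -0.85 and -0.07. Pairing cannot alter these mean changes when every replicate number is present at each stage, so they are no check of the result.

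The flavonoid list had 8 DEGs from 13 to 19 DPA, 5 when the 50 most abundant genes were left out of the totals, 3 with the 6 libraries of the pair, and 1 to 10 without 1 library. With FPKM summed over copies the fall in the log2 ratio of CHS to CHI from 19 to 25 DPA shrank to -0.35 and its exact permutation p was 0.20. The value at 25 DPA minus that at 13 DPA was then 0.22, and it was -0.37 to 0.15 without 1 library. The ranks in likeness under settings chosen after seeing the data were 30 to 566 for CHI and 49 to 342 for CHS.

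Over all genes, DEGs from 13 to 19 DPA numbered 2024, with 970 higher. They were 7941 with 595 higher for total counts, 6410 with 568 higher for limma on log2(FPKM + 1), 2157 with 801 higher without the 50 most abundant genes, 3264 for DESeq2, 1302 with 6 libraries and 402 to 3065 without 1 library. The share of higher calls from 13 to 25 DPA also moved, with 3911 of 9965 at first, 1469 of 13976 for total counts and 2639 of 10112 without the 50 genes. From 19 to 25 DPA it was 2188 of 6793 against 1218 of 6741 and 1449 of 6687. The difference between the steps was called for 1793 genes with 507 upward, 1089 with 674 upward for total counts, 2690 with the block, 3617 for DESeq2 and 118 to 2312 without 1 library. The cause of these shifts was not tested. CHS and CHI had 200 or more counts in every library, while the second CHI gene and the 2 low CHS genes had 0 to 24, and depth limits what can be said of these.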
